A study of Mus musculus with 12 samples.

Results

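The CCN family is a set of 6 genes that encode secreted matricellular proteins, proteins that sit in the extracellular matrix and act on cells without forming its scaffold. In the count table they stand under their older symbols Ctgf, Cyr61, Nov, Wisp1, Wisp2 and Wisp3, which RefSeq now calls Ccn2, Ccn1, Ccn3, Ccn4, Ccn5 and Ccn6. All 6 members were found by symbol among the 23420 genes of the table. The family was chosen by the measured difference of Ctgf between the sorted fractions (adjusted p = 0.0070 over all tested genes). That difference, and those of the other members in the same comparison, are therefore given as a description and support nothing.

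Expression was measured by RNA sequencing in basal epithelial cells of the hard palate from 6 FVB mice, each of which gave a GFP-HI and a GFP-LO library. All mice were K5-tTA (+/-); tetO-H2B-GFP (+/-), so that a keratin 5 promoter controlled a histone-GFP label that doxycycline switches off, and the label then thins out with each division of the cell. CD49f-stained cells were sorted after 14 days of chase, and the submitters call GFP-HI cells infrequently dividing and GFP-LO cells frequently dividing. RNA came from pools of 200 to 1000 cells. Of the mice, 5 were 49 days old and B7F was 71 days old, so its age and the animal itself cannot be told apart. The libraries held 6678444 to 10547665 counts, of which 31.5% to 59.8% fell on the ribosomal precursor gene Rn45s. The basal keratinocyte genes Krt5, Krt14 and Krt15 were detected in all 12 libraries. The summed level of 8 basal keratinocyte markers was 14533 to 23204 CPM among GFP-HI cells and 17031 to 23979 CPM among GFP-LO cells (CPM, counts scaled by TMM to a common library total). This sum was higher in GFP-HI in 1 of 6 mice.

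CCN proteins carry a secretion signal followed by modules resembling insulin-like growth factor binding proteins, von Willebrand factor type C repeats, thrombospondin type 1 repeats and a cysteine knot, of which the last is missing in Wisp2. They bind integrins and heparan sulfate proteoglycans and also growth factors such as TGF-beta, BMP and VEGF. Ctgf and Cyr61 are widely used readouts of the transcriptional coactivators YAP and TAZ, which act through TEAD factors on DNA, and both also respond quickly to serum, stretch and TGF-beta. In stratified epithelium these genes are known for their response to wounding and to changes in cell shape and adhesion.

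The members share a layout of 5 annotated exons each (mm10). Ctgf lies on the plus strand of chromosome 10 from 24595442 to 24598682, with 2402 exonic bases, and Cyr61 on the minus strand of chromosome 3 from 145646971 to 145649985, with 2028. Wisp1 (66891393 to 66923199, 5022 exonic bases) and Nov (54745928 to 54753761, 2365) are both on the plus strand of chromosome 15. Wisp2 lies on chromosome 2 (163820834 to 163833147, plus strand) and Wisp3 on chromosome 10 (39150971 to 39163794, minus strand). No exon of Ctgf, Cyr61, Nov, Wisp1 or Wisp2 overlaps an exon of another gene in the table, whereas Wisp3 overlaps the gene Tube1, so reads there cannot be assigned to Wisp3 with certainty.

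Promoter sequences from RefSeq (GRCm38.p6) were matched for Cyr61 and Wisp3. The 250 bases before the annotated start of Cyr61, the most abundant member, are shown because TEAD factors are known to bind the letters GGAATG, or CATTCC on the other strand. They run from chr3:145649986-145650235 on the minus strand and are written 5′ to 3′, with the match in capitals.
Cyr61: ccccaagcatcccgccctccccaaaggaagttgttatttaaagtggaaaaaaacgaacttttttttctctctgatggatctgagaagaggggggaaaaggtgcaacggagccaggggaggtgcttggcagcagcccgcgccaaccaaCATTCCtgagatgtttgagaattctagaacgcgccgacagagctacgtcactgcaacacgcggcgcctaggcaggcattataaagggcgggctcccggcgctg
The window holds 1 match, which begins 103 bases before the start. Either orientation of these 6 letters occurs in 12.6% of the 32851 promoter windows of the same length, so the match is a description of the sequence and not evidence of binding.

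Cyr61 was the dominant CCN transcript of these basal cells. Per kilobase of exon it averaged 267 ± 149 CPM per kb among GFP-HI cells and 291 ± 117 CPM per kb among GFP-LO cells (SD, n = 6 each), a mean level above that of 98.4% of the 11719 tested genes. Ctgf came next, with 34.2 ± 32.7 CPM per kb among GFP-HI cells and 19.6 ± 16.8 CPM per kb among GFP-LO cells, above 87.6% of tested genes. Wisp1 followed at 2.76 ± 1.89 CPM per kb among GFP-HI cells and 1.95 ± 0.694 CPM per kb among GFP-LO cells, above 21.9% of tested genes. Within every library Cyr61 stood above Ctgf and Ctgf above Wisp1.

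Cyr61 made up 80.6% to 94.2% of the family's summed level per kb among GFP-HI cells, against 89.2% to 96.5% among GFP-LO cells. The share of Ctgf was 5.28% to 17.3% in GFP-HI and 2.84% to 9.70% in GFP-LO. Wisp1 never exceeded 1.92% of the sum. The balance of the leading pair differed between animals, and the ratio of Cyr61 to Ctgf per kb was 4.66 to 17.9 in GFP-HI and 9.28 to 33.9 in GFP-LO.

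Nov, Wisp2 and Wisp3 were close to or at 0. Nov, known mainly as a brake on proliferation and a partner of Notch, had 4 counts summed over GFP-HI and 6 over GFP-LO. Wisp2 had 1 and 1 count, and Wisp3 had 4 and 3. A library with 0 counts could still hold a gene at up to 0.258 to 0.433 CPM (the level that 3 counts would give, counting error only), and no difference between the fractions was detectable for these members at this depth. Their order cannot be resolved either, and in the GFP-HI library of B3M the 4 counts of Nov came to 0.222 CPM per kb against 0.131 for the 5 counts of Wisp1. Only Ctgf, Cyr61 and Wisp1 passed the filter on low counts and entered the tests.

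Ctgf was higher in GFP-HI than in GFP-LO in each of the 6 mice, by a fitted factor of 1.69. Its protein, connective tissue growth factor, promotes adhesion and matrix production. In B1M the levels were 236 CPM among GFP-HI cells and 124 CPM among GFP-LO cells. B7F had 76.0 CPM among GFP-HI cells and 51.8 CPM among GFP-LO cells, and B5M had 74.9 CPM among GFP-HI cells and 44.1 CPM among GFP-LO cells. These are the animals with the highest Ctgf in both fractions.

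In the others Ctgf was lower throughout. B7M had 50.7 CPM among GFP-HI cells and 23.3 CPM among GFP-LO cells, B4M had 30.8 CPM among GFP-HI cells and 25.3 CPM among GFP-LO cells, and B3M had 23.8 CPM among GFP-HI cells and 13.2 CPM among GFP-LO cells. The fractions overlapped widely when the mice were not matched, since the GFP-LO library of B1M exceeded GFP-HI of all other mice. Within mice the difference ranged from log2 0.28 in B4M to 1.12 in B7M. The fitted log2 fold change was 0.75 ± 0.12 (SE, n = 6 mice), and it was 0.81 ± 0.66 with an adjusted p of 1.00 when mouse was not in the model (edgeR).

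Cyr61 did not share this direction. It encodes the cysteine-rich angiogenic protein, a ligand of integrins and an early response gene. Its lowest, median and highest levels were 299, 479.6 and 1120 CPM among GFP-HI cells and 294, 597 and 972 CPM among GFP-LO cells, so the fractions overlapped nearly completely. It was higher in GFP-HI in B1M, B3M and B5M, by log2 0.20, 0.07 and 0.08, and lower in B4M, B7F and B7M, by log2 differences of −0.54, −0.46 and −0.43. The fitted log2 fold change was −0.18 ± 0.10 (SE, n = 6 mice), which did not pass.

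**Figure D1:**
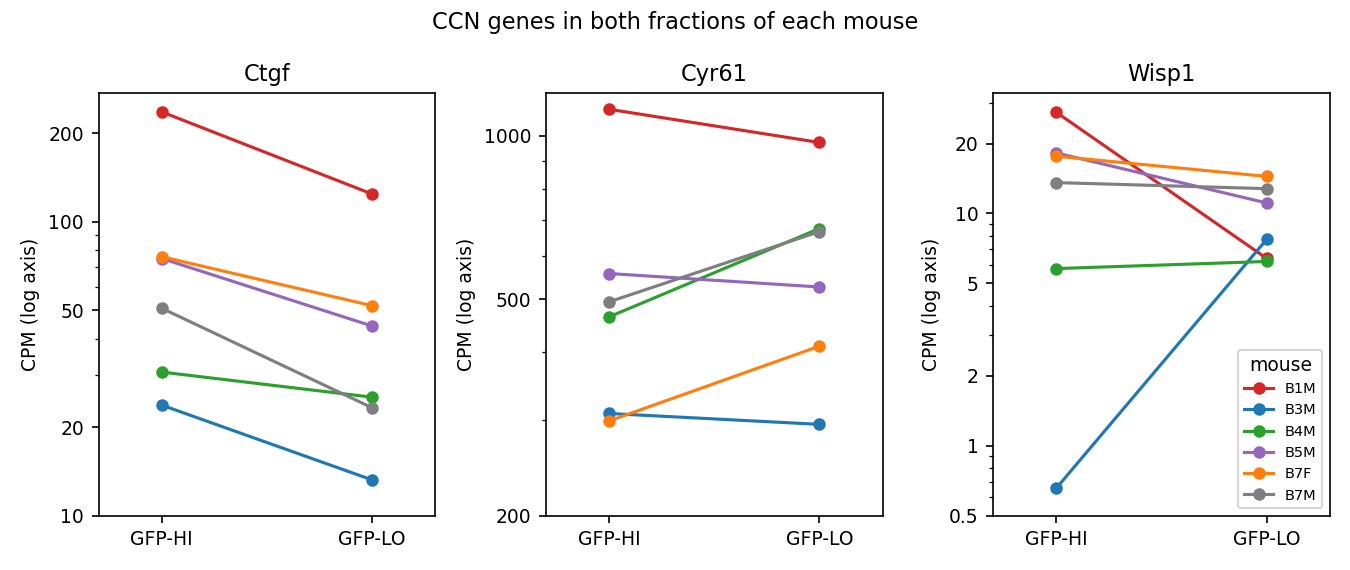
CPM (log axis) of Ctgf, Cyr61 and Wisp1 in the GFP-HI and the GFP-LO library of each mouse, joined by a line. All 6 lines of Ctgf lie higher on the GFP-HI side, those of Cyr61 run both ways, and Wisp1 in B3M stands at 0.656 CPM among GFP-HI cells and 7.73 CPM among GFP-LO cells.

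The level of Cyr61 relative to Ctgf was lower in GFP-HI in each mouse. The log2 difference of this ratio between the fractions was −1.55 in B7M, −1.01 in B7F and between −0.82 and −0.68 in the other 4, with a mean of −0.93 ± 0.33 (SD, n = 6). A ratio within a library does not depend on the scaling of library totals. It uses the comparison by which the family was picked, and no test is given.

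Wisp1, a secreted protein first described as a target of Wnt signalling, differed between the fractions in opposite directions in single animals. Its lowest, median and highest levels were 0.656, 15.6 and 27.3 CPM among GFP-HI cells and 6.21, 9.41 and 14.4 CPM among GFP-LO cells. The extremes were both GFP-HI libraries, with 222 counts in B1M and 5 counts in B3M, against 51 and 90 counts in the GFP-LO libraries of these mice. The log2 difference was 2.05 in B1M and −3.16 in B3M, and between −0.10 and 0.70 in the other 4 mice. The fit gave log2 0.15 ± 0.49 (SE, n = 6 mice) and did not pass, and the plain mean over mice was −0.02. Without B1M the fitted value was −0.20, without B5M −0.0012 and without B3M 0.62. Fewer genes were detected in GFP-HI of B1M (12312) and of B3M (12810) than in the other 10 libraries, and the part of this in the values of Wisp1 was not tested.

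**Figure D2:**
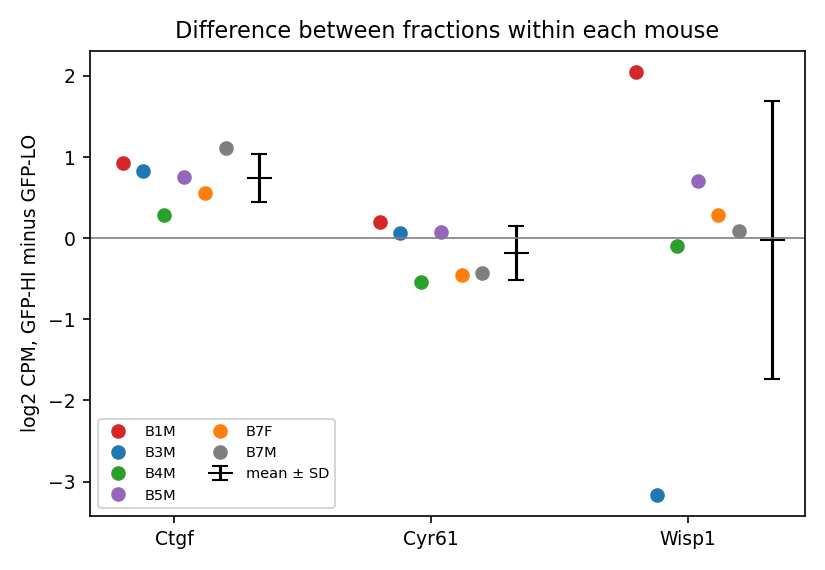
Difference in log2 CPM (prior count 2), GFP-HI minus GFP-LO, for Ctgf, Cyr61 and Wisp1, with 1 point per mouse and the mean ± SD beside the points (n = 6). Ctgf lies above 0 in all 6 mice, Cyr61 scatters on both sides of 0, and Wisp1 has 1 mouse far above and 1 far below the rest.

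In counts of calls, 1 of the 3 tested members, Ctgf, was higher in GFP-HI and 0 were lower. Among all 11719 tested genes 0.469% were called higher, 0.0597% lower and 0.529% in either direction (edgeR quasi-likelihood test with mouse as a block, Benjamini-Hochberg adjusted p under 0.05). Since this comparison chose the family, nothing is read from the members' count.

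The levels of Ctgf and Cyr61 differed widely between animals. The fit separates differences between mice from the difference between fractions by which the family was chosen. Earlier results of these libraries were known at that choice, levels per mouse included, so the p-values below describe these mice and are not independent evidence. Averaged over both fractions, Ctgf stood at 180.1 CPM in B1M, 63.9 in B7F, 59.5 in B5M, 37.0 in B7M, 28.0 in B4M and 18.5 in B3M. The fitted range between the highest and lowest mouse was log2 3.27, or 9.66-fold (edgeR quasi-likelihood F test over the mice, adjusted p = 4.0e-06). B1M stood far above the others, and without it the range was log2 1.83 (adjusted p = 4.6e-05).

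Cyr61 was likewise highest in B1M and lowest in B3M, at 1046 and 301 CPM. B7M, B4M and B5M lay close together at 581, 569.8 and 543 CPM, and B7F was at 354 CPM. The fitted range was log2 1.80, or 3.48-fold (edgeR, adjusted p = 1.6e-04), and log2 0.95 without B1M (adjusted p = 4.5e-04). Wisp1 ran from 16.8 CPM in B1M to 4.19 CPM in B3M, a range of log2 1.86 that did not pass (adjusted p = 0.45). With B1M and B3M both left out, the differences between the remaining 4 mice passed for Ctgf, Cyr61 and Wisp1 (edgeR adjusted p = 1.3e-04, 0.0022 and 0.0069). That fit called more genes between mice in all, 1754 against 1134 in the main fit. B1M and B3M also held the largest differences of Wisp1 between the fractions (log2 2.05 and −3.16).

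Differences between mice were called for 2 of the 3 tested members and for 9.68% of all tested genes. The median range over all tested genes was log2 0.88. Ctgf exceeded 99.7% of the 1824 genes whose mean log2 level lay within 0.5 of its own, and Cyr61 exceeded 90.1% of 111 such genes. Wisp1, which was not called, exceeded 91.5% of 2057 such genes.

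**Figure D3:**
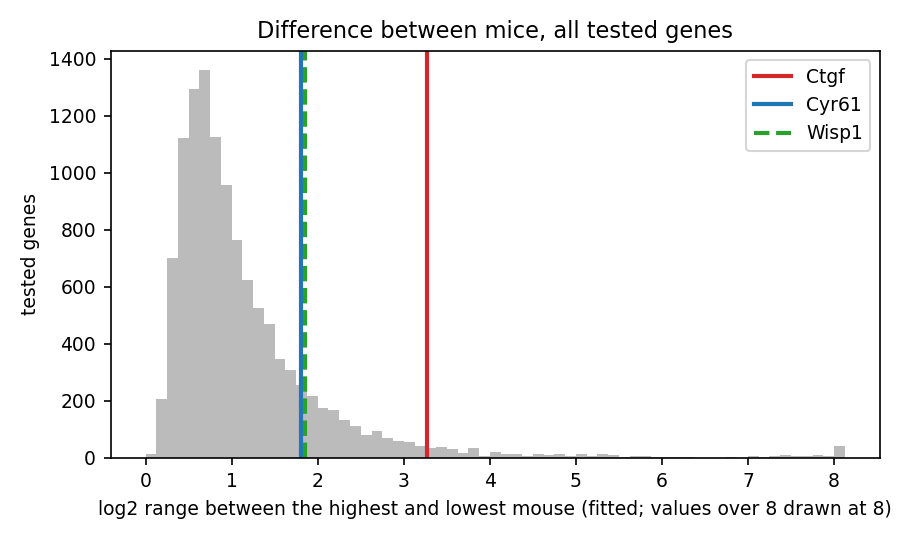
Histogram of the fitted log2 range between the highest and lowest mouse over the 11719 tested genes, with vertical lines for Ctgf (3.27), Cyr61 (1.80) and Wisp1 (1.86). The line of Ctgf lies in the right tail, beyond 96.3% of tested genes.

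Across the 6 mice the levels of Ctgf and Wisp1, averaged over both fractions, had the same order (Spearman's rho = 1.00, exact permutation p = 0.0028, adjusted p = 0.0083 over 3 pairs of members). Pearson's r on the log2 scale was 0.83 (exact permutation p = 0.029, adjusted p = 0.088) and 0.88 without B1M and B3M, the mice farthest from the median of Ctgf. The relation was not seen in each fraction, since r over the 6 libraries was 0.82 in GFP-HI and −0.05 in GFP-LO. B1M ranked first for Wisp1 only through its GFP-HI library, at 27.3 CPM against 6.41 CPM in GFP-LO. The shared order and the p of rho thus depend on averaging CPM over unlike libraries. Wisp1 itself did not pass between mice in the main fit. Ctgf and Cyr61 had r = 0.73 and rho = 0.49 across mice (exact permutation p = 0.10 and 0.36, adjusted p = 0.16 and 0.36), and r was −0.68 without B1M and B3M, so the positive value rests on those animals. Cyr61 and Wisp1 had r = 0.51 and rho = 0.49 (exact permutation p = 0.30 and 0.36, adjusted p = 0.30 and 0.36), with r = −0.50 without the same mice. These pairs were chosen after the values had been seen.

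Genes of the immediate early response, which are switched on within minutes of a stimulus and are also induced by tissue dissociation, had their lowest summed level in the same mouse as Ctgf and Cyr61. Of 22 tested genes of a list of immediate early and serum response factor genes, 15 were called between mice, or 68.2% against 9.68% of all tested genes. All 15 were lowest in B3M, and 7 were highest in B1M. Among all 1134 genes called between mice, 27.6% were lowest in B3M and 35.1% highest in B1M. Other lists also had a share called between mice above 9.68%. It was 57.1% of 7 tested suprabasal and 37.5% of 8 basal keratinocyte markers, and 20.8% of 24 CCN receptors and binding partners. No share among genes of like level was taken. The summed level of the immediate early list was 4652 CPM among GFP-HI cells and 4866 CPM among GFP-LO cells of B3M, and 7439 to 11317 CPM in the other 10 libraries.

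**Figure D4:**
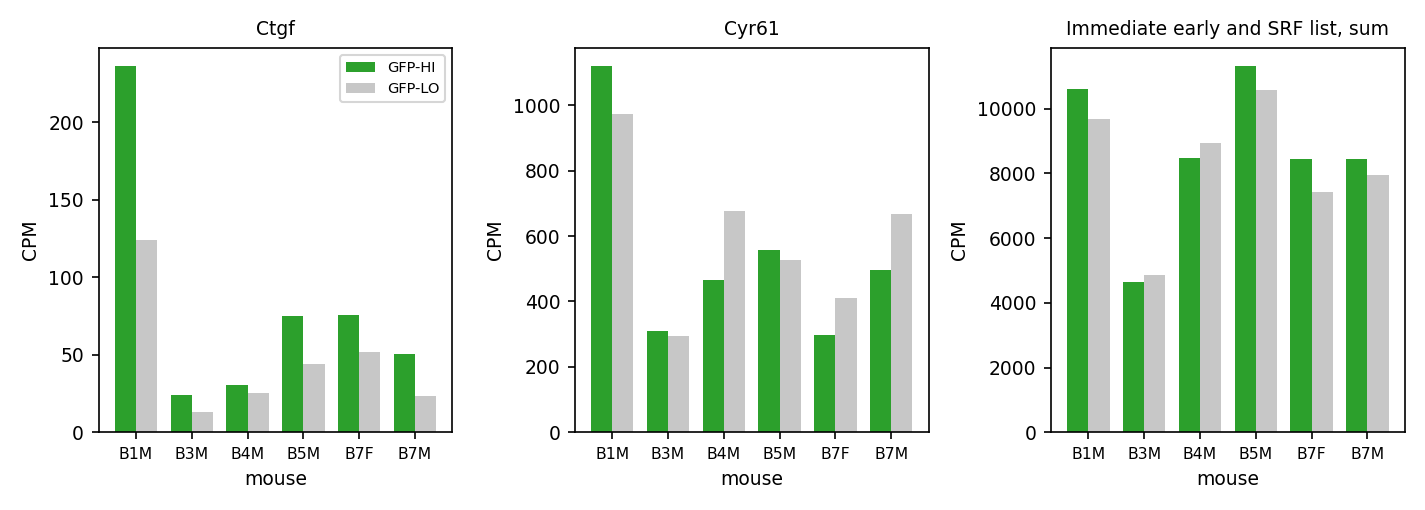
CPM of Ctgf, of Cyr61 and of the summed immediate early and serum response factor list in each mouse, GFP-HI and GFP-LO side by side. B3M is lowest for the list in both fractions, B1M is highest for Ctgf and Cyr61, and B5M is highest for the list, at 11317 CPM among GFP-HI cells and 10582 CPM among GFP-LO cells.

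The AP-1 subunit gene Fosb ranged by log2 1.92 between mice and the early growth response factor Egr1 by 1.69 (edgeR adjusted p = 3.1e-04 and 0.0011). The antiproliferative gene Btg2 ranged by 1.42 and Ier3, an early response gene of cell survival, by 0.74 (adjusted p = 7.9e-04 and 0.041). The part of this list in the CCN levels of the mice was not tested. Between the fractions the list had 0 of 22 genes called in either direction, beside 0.529% of all tested genes. Its median log2 fold change was 0.03, beside −0.02 over all tested genes. Fosb and Ier3 had log2 0.36 and 0.24 and were positive in 6 of 6 mice, Egr1 had 0.21 and Btg2 0.17, and none passed (edgeR adjusted p = 0.43, 0.61, 0.73 and 0.76).

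In the list of YAP and TAZ targets, Ctgf was the 1 gene called among 19 tested of 22, and 0 were called lower. Over all tested genes 0.529% were called in either direction. Of the 19, which include Ctgf and Cyr61, 11 were positive and 8 negative, with a median log2 fold change of 0.05. Since Ctgf chose the family, nothing is read from its call. Besides the CCN members, the genes with the smallest p were F3, the tissue factor that starts coagulation, at log2 0.26, the receptor tyrosine kinase Axl at 0.29 and the guanine exchange factor Dock5 at 0.32 (edgeR adjusted p = 0.50, 0.71 and 0.72). Between mice, 6 of the 17 tested genes other than CCN members were called, or 35.3% against 9.68% of all tested genes. Of these 6, 3 were lowest in B3M and 1 was highest in B1M.

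TGF-beta response genes had 0 of 16 called between the fractions, beside 0.529% of all tested genes, and a median log2 fold change of 0.03. Thbs1, which encodes the matricellular protein thrombospondin 1, an activator of latent TGF-beta, had 116 ± 63.0 CPM among GFP-HI cells and 69.3 ± 25.9 CPM among GFP-LO cells (SD, n = 6), higher in 6 of 6 mice, and missed the threshold (log2 0.64 ± 0.14 SE, edgeR adjusted p = 0.071). Fibronectin, Fn1, had log2 0.65, the collagen gene Col1a1 1.55 and the integrin subunit Itgb6 −0.42 (adjusted p = 0.60, 0.69 and 0.70). Between mice, 37.5% of the 16 were called.

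Of 24 tested genes for receptors and binding partners of CCN proteins, 0 were higher and 1 was lower, beside 0.469% and 0.0597% of all tested genes. Their median log2 fold change was −0.01. The lower one was Dcn, whose product decorin is known to bind CTGF protein, at 327 ± 83.9 CPM among GFP-HI cells and 456 ± 92.2 CPM among GFP-LO cells (SD, n = 6; log2 −0.49 ± 0.07 SE, edgeR adjusted p = 0.0031). It was lower in GFP-HI in all 6 mice, the opposite direction to Ctgf. The heparan sulfate proteoglycan Gpc1 had log2 −0.38 and was lower in 6 of 6 mice, and the growth factor Vegfa had 0.37 (adjusted p = 0.50 and 0.60). The integrin subunits Itgav and Itga6, each a part of separate CCN receptors, had log2 0.11 and −0.12 (edgeR adjusted p = 0.78 and 0.77), named outside the rule for their role.

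The genes most alike to Ctgf in pattern over the 12 libraries, by Pearson's r of log2 CPM among 9562 genes with a mean of at least 5 CPM, were Ltbp1 (0.95), Dnajb4 (0.92), 4833423E24Rik (0.92), Taf1d (0.92) and Ier2 (0.91). For the difference GFP-HI minus GFP-LO over the 6 mice, r with Ctgf was 0.78 for Ltbp1, and −0.07, 0.02, 0.08 and −0.37 for the other 4 in the same order. For the 5 genes named below for Cyr61 this r of differences was 0.49 to 0.87, and for the 5 of Wisp1 0.87 to 0.99. The differences of Wisp1 were log2 2.05 in B1M and −3.16 in B3M and smaller elsewhere, so these mice weigh most in its r. Ltbp1, which encodes a latent TGF-beta binding protein, had 96.6 ± 35.8 CPM among GFP-HI cells and 72.2 ± 16.3 CPM among GFP-LO cells (SD, n = 6; log2 0.38, edgeR adjusted p = 0.19). Those most alike to Cyr61 were Flrt3 (0.92), Abi1 (0.89), Bnip1 (0.88), Ttc21b (0.88) and Nmd3 (0.87). For Wisp1 they were Zmym4 (0.97), Hnrnph3 (0.96), Ehbp1 (0.94), Egr2 (0.94) and Suv39h2 (0.93). Over the same libraries Ctgf and Cyr61 had r = 0.61. The libraries come in pairs from 6 mice, so these values describe the pattern and carry no p.

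CCN genes are also expressed by fibroblasts and other cells of the lamina propria, and in bulk samples fewer cells of a type cannot be told apart from less RNA per cell. The 14 fibroblast markers summed to 301 to 551 CPM among GFP-HI cells and 401 to 668 CPM among GFP-LO cells, lower in GFP-HI in 6 of 6 mice, and most of this sum was Dcn. The median log2 fold change of the 7 tested markers was 0.91, of opposite sign to the sum, with Fbn1 at 0.91, Vim at 1.08 and Col1a1 at 1.55 and none of these called (edgeR adjusted p = 0.48, 0.80 and 0.69). This median was 0.37 without B7M, 0.50 without B5M and 0.59 without B7F. The first 3 markers of the list, the collagen genes Col1a1, Col1a2 and Col3a1, averaged 2.88, 2.60 and 0.464 CPM among GFP-HI cells and 0.878, 0.852 and 0.268 CPM among GFP-LO cells. Col5a1, another collagen gene of the list and named after its values were seen, averaged 5.73 CPM in GFP-HI libraries and 5.97 CPM in GFP-LO libraries (log2 −0.14, edgeR adjusted p = 0.95). The part of these markers in the level of Ctgf was not tested.

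Lists of other cell types were summed in the same way. The 6 endothelial markers summed to at most 5.41 CPM among GFP-HI cells and 2.82 CPM among GFP-LO cells, with Emcn at 0 in all libraries, and their sum was higher in GFP-HI in 5 of 6 mice (mean 3.13 CPM for GFP-HI against 1.37 CPM for GFP-LO). The 7 immune markers summed to 0.614 to 22.2 CPM among GFP-HI cells and 0.628 to 30.2 CPM among GFP-LO cells, and the Schwann cell markers to at most 0.922 CPM for GFP-HI and 2.66 CPM for GFP-LO. Melanocyte and Merkel cell markers summed to at most 6.01 and 14.0 CPM among GFP-HI cells and 6.41 and 21.5 CPM among GFP-LO cells. The smooth muscle and pericyte list stood at 75.7 to 116 CPM among GFP-HI cells and 73.4 to 115 CPM among GFP-LO cells, nearly all of it Cspg4. Suprabasal keratinocyte markers, of which 9 of 10 are in the table, summed to 1219 to 3688 CPM among GFP-HI cells and 1296 to 2578 CPM among GFP-LO cells, higher in GFP-HI in 2 of 6 mice. The sum was higher in GFP-HI in 4 of 6 mice for the smooth muscle and pericyte list and for the Merkel cell list, in 2 for melanocytes, in 1 for immune cells and in 0 for Schwann cells. The part of these lists in the level of Ctgf was not tested.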

How the data were processed

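RNA sequencing gave 12 libraries, a GFP-HI and a GFP-LO library from each of 6 mice. The authors deposited 1 table of whole-number read counts per gene, not normalized. Per the submitters' processing notes, the tools were featureCounts, DESeq2, R 3.4.1, FastQC and bcl2fastq 2.20.0, with builds mm10 and GRCm38, and per the file headers reads were counted over exons. Not given in the sources used here were the aligner, annotation release, strand setting and handling of multiply mapped reads. The exonic length column, another deposited value, served to compare genes per kb.

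Counts were analysed with edgeR 4.0.16 in R 4.3.3. Genes were filtered by group (minimum count 10, total 15), which left 11719, and scaled by TMM with Rn45s kept in the totals. The quasi-likelihood fit (robust) held fraction and mouse, and p-values were two-sided and adjusted over all tested genes by the Benjamini-Hochberg method with a threshold of 0.05. The fit was tested on simulated data. The animal codes in the titles pair the libraries: deviations from the group mean correlated by 0.23 to 0.49 within a mouse, and by at most 0.26 between mice. No batch is named in the labels.

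The members and lists were chosen with earlier results of these data known. Genes named are the members and, per list, up to 4 with the smallest p between the fractions. The first 3 of the basal keratinocyte list and of the fibroblast list are named as defining markers. For each member with a mean of at least 5 CPM, the 5 genes most alike in pattern are also named. Emcn is named outside this rule for its level of 0. Alternatives were RLE scaling, DESeq2 1.42.0, other filters, Rn45s removed, mice left out and no mouse term. Counts without molecular identifiers are not independent molecules, so floors cover counting error only.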

Additional observations from a re-analysis of the deposited data

Results flagged for a closer look

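Mouse B1M stood apart from the other 5 mice for both leading CCN genes. Ctgf was at 236 CPM in its GFP-HI library, where the next highest mouse had 76.0 CPM, and at 124 CPM in its GFP-LO library, where the next had 51.8 CPM. Cyr61 was at 1120 CPM in the GFP-HI library of B1M, against 558 CPM in the next. In these 3 of 9 sets of 6 values examined, Dixon's critical value for 6 samples was exceeded. The value compared is the gap to the nearest mouse relative to the whole range. Chance gives this in about 5% of sets of normally distributed values. These 3 sets were taken as CPM without a log, so that share need not hold, and the sets share mice. They were not examined on the log scale. Leaving B1M out gave a log2 fold change of 0.72 for Ctgf between the fractions.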

How the results depend on the processing

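The log2 fold change of Ctgf stayed positive in all 13 alternatives (0.68 to 0.84). With single mice left out its adjusted p was 0.011 to 0.048 (edgeR quasi-likelihood test), nearest the threshold without B3M. Ctgf passed in 12 of the 13 alternatives. The exception was the fit with no replicate block, in which mouse is not a term (0.81). That fit called 0 genes higher and 0 lower in GFP-HI, with 293 and 147 at an unadjusted p under 0.05, and the pairing changed no other call of a member. Cyr61 stayed negative in all 13 (−0.34 to −0.11) and never passed. Wisp1 never passed, and its value with single mice left out lay between −0.20 and 0.62, the sign turning without B1M and without B5M (−0.0012). Against 55 genes called higher and 7 lower in the main fit, DESeq2 called 120 and 23, no count filter gave 127 and 45, and leaving out B1M and B3M gave 117 and 34. Leaving out single mice gave 29 to 81 higher and 2 to 14 lower. Against 1134 genes called between mice, these settings gave 2029, 2338 and 1754, and leaving out single mice 684 to 1527. Differences between mice passed for Ctgf and Cyr61 in all 12 alternatives. They passed for Wisp1 without a count filter (log2 range 1.85) and without B1M and B3M (1.39). Removing Rn45s shrank the library totals and so raised levels per kb, to 46.5 CPM per kb for Ctgf (26.9 with Rn45s), 483 for Cyr61 (279) and 4.08 for Wisp1 (2.35). The cause of the other shifts was not tested. Depth limits Nov, Wisp2 and Wisp3, with at most 4 counts in a library.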
